A study of Mus musculus with 15 samples.

Results

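Pericytes are the cells wrapped around capillaries, and 9 genes commonly used to recognise them were followed in skeletal muscle RNA: Rgs5, Kcnj8, Abcc9, Notch3, Cspg4, Mcam, Higd1b, Ndufa4l2 and Vtn. They were picked by name from the 55536 genes of the deposited tables, and each name matched 1 gene identifier. The muscle came from 15 mice aged 2 months, all labelled male. There were 5 wild-type mice, called controls here, 5 labelled as PdgfrB knockout and 5 labelled PdgfrB D489V, and the study's design text describes the last as constitutively active and both alleles as specific to myogenin. Myogenin is a gene of differentiating muscle cells, so neither allele is described as being driven in pericytes themselves. The labels name no driver line, muscle, strain, litter or batch, and they do not say whether samples of 1 group shared a litter or a preparation, so p-values measure the spread between these samples.

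Pericytes share a basement membrane with the endothelium, steady the vessel wall and control capillary flow. Endothelial cells secrete PDGF-B, which binds the receptor encoded by Pdgfrb on pericytes and recruits and keeps them, and Notch3 signalling helps them mature. Skeletal muscle has a dense capillary bed, so RNA of a whole muscle piece holds pericyte, endothelial and smooth muscle transcripts beside the far more abundant transcripts of the fibres. In such bulk RNA, fewer cells of a type and less RNA per cell cannot be told apart.

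Samples held between 29815559 and 36489777 normalized counts in all. Pdgfrb, the targeted gene, was at 1673 to 1848 in controls, 958 to 1628 in knockout and 820 to 1062 in D489V, so its RNA was lowest in the group labelled active. Knockout replicate 3, labelled male, held 3165 normalized counts of Xist, the X-inactivation RNA of females, against at most 101 elsewhere. Values without this mouse are given beside the results that it moved most. The log2 difference of Pdgfrb was -0.45 in knockout against control and 0.51 against D489V with all mice. It was -0.40 and 0.56 without this mouse. All 9 genes were above 0 in every sample and passed the filter on low values in all 3 comparisons.

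Levels were compared between genes per kilobase of annotated exon (GENCODE M21). In controls Rgs5, which encodes a protein that shuts off G protein signalling, stood far above the rest at 2508 ± 169 normalized counts per kilobase (SD, n = 5). Abcc9 followed at 603 ± 132, Mcam at 554.6 ± 61.9 and Vtn at 500.0 ± 34.2 per kilobase, and these 3 overlapped between neighbours. Ndufa4l2 at 322 ± 20.7 overlapped Kcnj8 at 281 ± 18.2 per kilobase. Notch3 at 188 ± 24.9 overlapped Higd1b at 141 ± 27.8, and Cspg4 was lowest at 59.6 ± 5.9 per kilobase. The mean levels stood in the same order in knockout and in D489V. These levels describe whole muscle, and Abcc9 in particular is also used by muscle fibres.

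**Figure D1:**
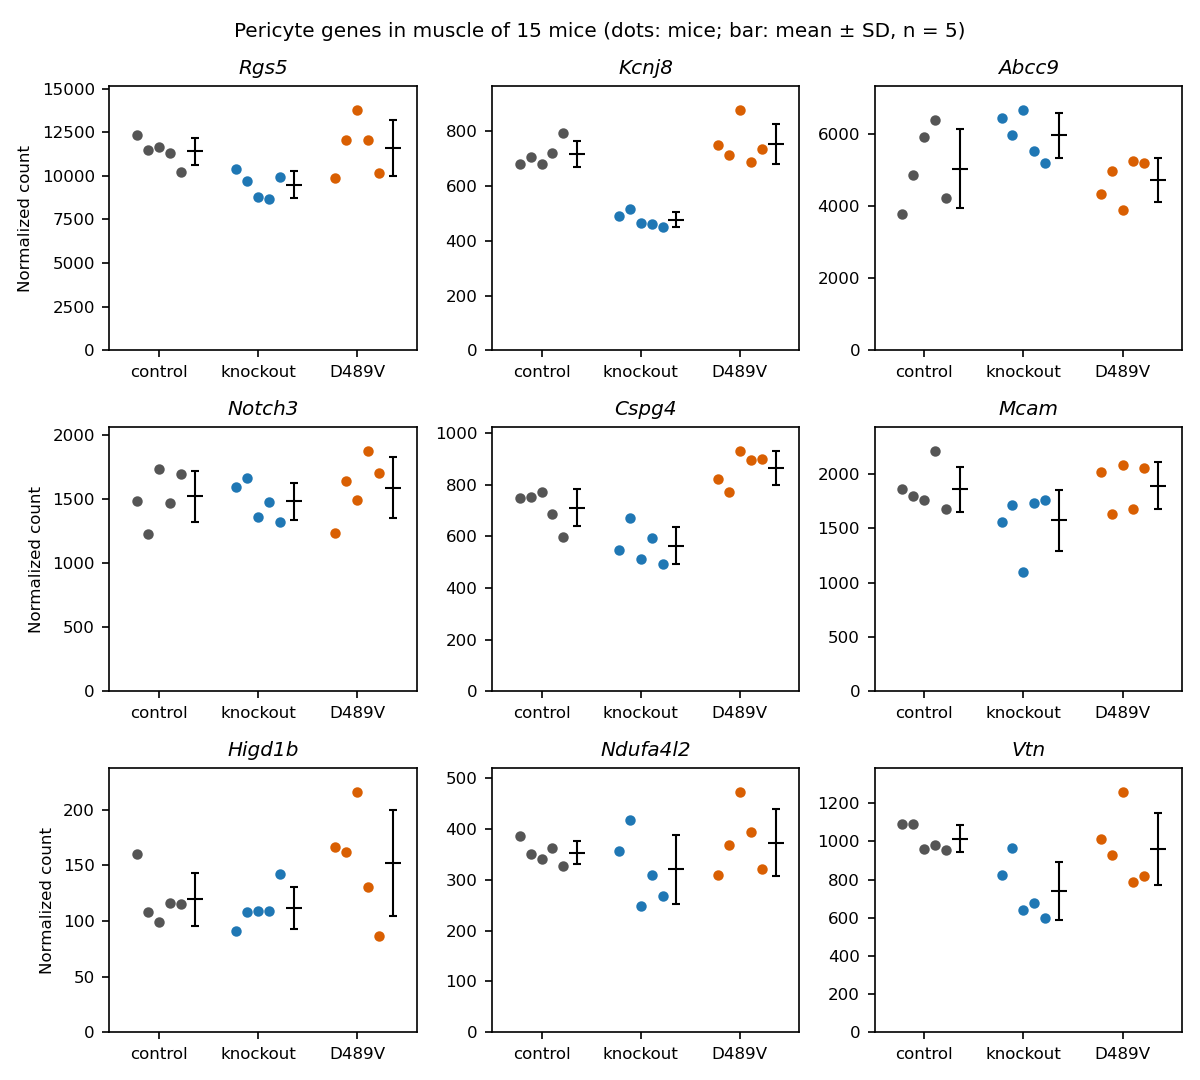
Normalized count (vertical axes, from 0, a separate scale for each gene) of the 9 pericyte genes in each of 15 mice, with controls in grey, knockout in blue, D489V in orange and bars at the mean ± SD. Kcnj8 in the 5 knockout mice, at 449 to 518, lies below every other mouse, and Cspg4 is highest in D489V.

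Differences between groups were tested with limma on log2(normalized count + 1), with Benjamini-Hochberg adjusted p-values over all genes tested and a threshold of 0.05. In knockout against control, 8 of the 9 genes had a log2 difference below 0 and 1 above, with a median of -0.26 against 0.01 over all 15234 genes tested. Without knockout replicate 3 the median was -0.13, with 8 genes again below 0. None of the 9 passed the threshold in limma (0.00656% of all genes did), and 4 were lower and 0 higher at an unadjusted p under 0.05, where 7.42% and 7.65% of all genes were. In 1 of the 9 every knockout mouse lay below every control and in 0 above, against 1.25% and 0.991% of all genes. In D489V against control, 7 lay above 0 and 2 below, with a median of 0.06 against 0.00 over 15339 genes. None of the 9 passed there either in limma (0.0587% of all genes did, 0.0326% lower and 0.0261% higher). At an unadjusted p under 0.05, 1 was higher and 0 lower, where 5.37% and 4.06% of all genes were, 9.43% together. In 1 of the 9 every D489V mouse lay above every control and in 0 below, against 1.1% and 1.06% of all genes. In the direct comparison, knockout against D489V, 2 of the 9 passed as lower in knockout and 1 as higher, where 10.3% and 10.5% of 15299 genes passed in those directions, 20.8% together. At an unadjusted limma p under 0.05, 5 of the 9 differed against 37.7% of all genes, 4 lower (18.3% of all genes) and 1 higher (19.4%), and without knockout replicate 3 the lower ones were 2. In 2 of the 9 every knockout mouse lay below every D489V mouse and in 0 above, against 6.7% and 7.22% of all genes. The comparisons with control share the same 5 control mice, so their values are given side by side only.

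**Figure D2:**
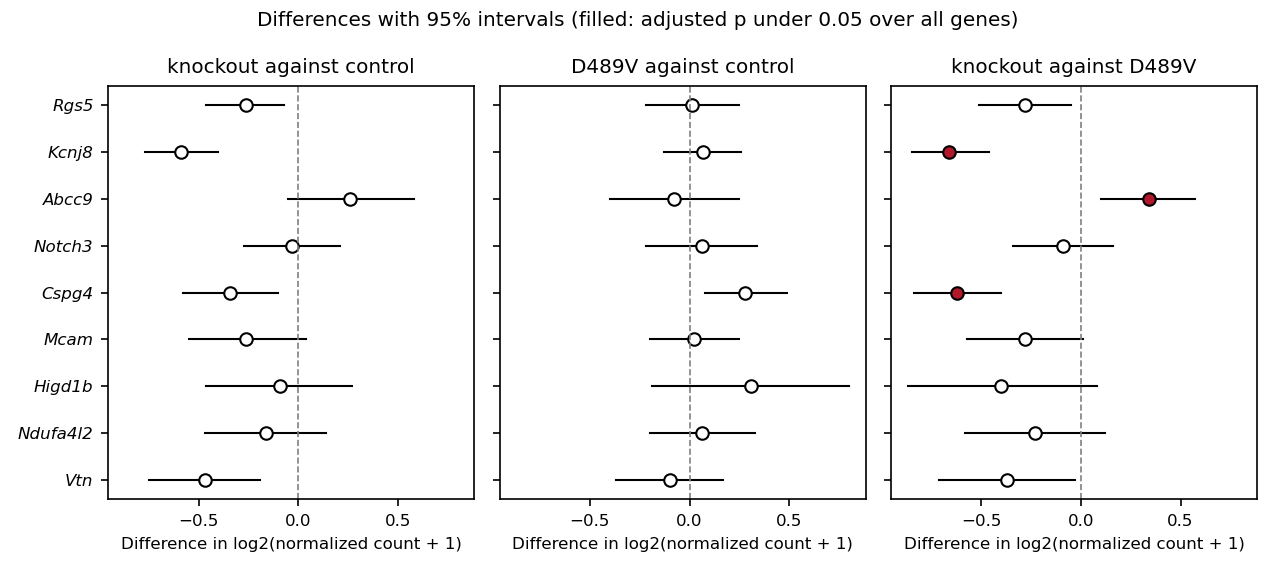
Difference in log2(normalized count + 1) between groups (horizontal axes) for each of the 9 genes (rows), with 95% intervals from limma, with the panels, from left to right, for knockout and D489V each against control and for the direct comparison. Filled points passed an adjusted p of 0.05: Kcnj8 at -0.66, Cspg4 at -0.62 and Abcc9 at 0.34, all in the direct comparison.

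Kcnj8 and Abcc9 encode the pore-forming and the sulfonylurea receptor subunit of the ATP-sensitive potassium channel of pericytes and smooth muscle, which opens when cellular energy is low and relaxes the vessel. The genes are neighbours on the minus strand of chromosome 6, with 16247 bases between them in GRCm38: Kcnj8 (ENSMUSG00000030247) lies at chr6:142564837-142571614 and Abcc9 (ENSMUSG00000030249) at chr6:142587862-142702315. Kcnj8 held 681, 705, 682, 722 and 794 normalized counts in controls 1 to 5. It held 490, 518, 464, 463 and 449 in knockout mice 1 to 5, and 751, 714, 878, 689 and 735 in D489V mice 1 to 5. The highest knockout mouse was thus below the lowest mouse of both other groups, while D489V and controls overlapped. Kcnj8 was the 1 gene of the 9 whose knockout values all lay below all controls.

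Kcnj8 fell in knockout against D489V, to 0.635 of the D489V level (log2 difference -0.66, SE 0.0891, limma adjusted p 0.00215), and lower values were seen in 5 of 5 knockout mice. Against control its log2 difference was -0.59 (SE 0.0836, 95% interval -0.77 to -0.40), from 716.8 ± 46.4 to 476.8 ± 27.4 (SD, n = 5). That difference had an unadjusted p of 1.55e-05 in limma and an adjusted p of 0.0787, so it missed the threshold. With all 15 samples in one limma fit the adjusted p was 0.0131, so this call depends on which samples enter the estimate of the spread. In D489V against control the log2 difference was 0.07 (95% interval -0.13 to 0.26, limma adjusted p 0.846).

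Abcc9 went the other way. It held 3802, 4868, 5934, 6414 and 4242 normalized counts in controls, 6470, 5992, 6679, 5528 and 5195 in knockout and 4336, 4984, 3889, 5253 and 5216 in D489V. Controls spanned nearly the whole range, and only knockout replicate 5 lay inside the range of D489V. Abcc9 rose in knockout against D489V, with a log2 difference of 0.34 (SE 0.107, limma adjusted p 0.0434), with 4 of 5 knockout mice above every D489V mouse. It no longer passed without knockout replicate 3 (log2 difference 0.30, limma adjusted p 0.0899), nor in 9 other alternatives of 17, with adjusted p between 0.0306 and 0.11 over all of them. Against control the log2 difference was 0.26 in knockout (95% interval -0.05 to 0.58) and -0.08 in D489V (95% interval -0.40 to 0.25), with limma adjusted p of 0.385 and 0.907.

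Set against each other within a mouse, there were 17.9, 14.5, 11.5, 11.3 and 18.7 Kcnj8 per 100 Abcc9 normalized counts in controls. The ratio was 7.57, 8.64, 6.95, 8.38 and 8.64 in knockout and 17.3, 14.3, 22.6, 13.1 and 14.1 in D489V. All knockout mice therefore lay below all others in this ratio, which was chosen after the values were seen and is given with no test. Kcnj11, the gene of the channel pore used by muscle fibres, was at 3825 to 5794 in knockout against 2852 to 5083 in controls and 3620 to 4421 in D489V, and its groups overlapped. Abcc8, the other receptor subunit gene, was at 103 to 275 in knockout, 119 to 235 in controls and 194 to 268 in D489V.

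**Figure D3:**
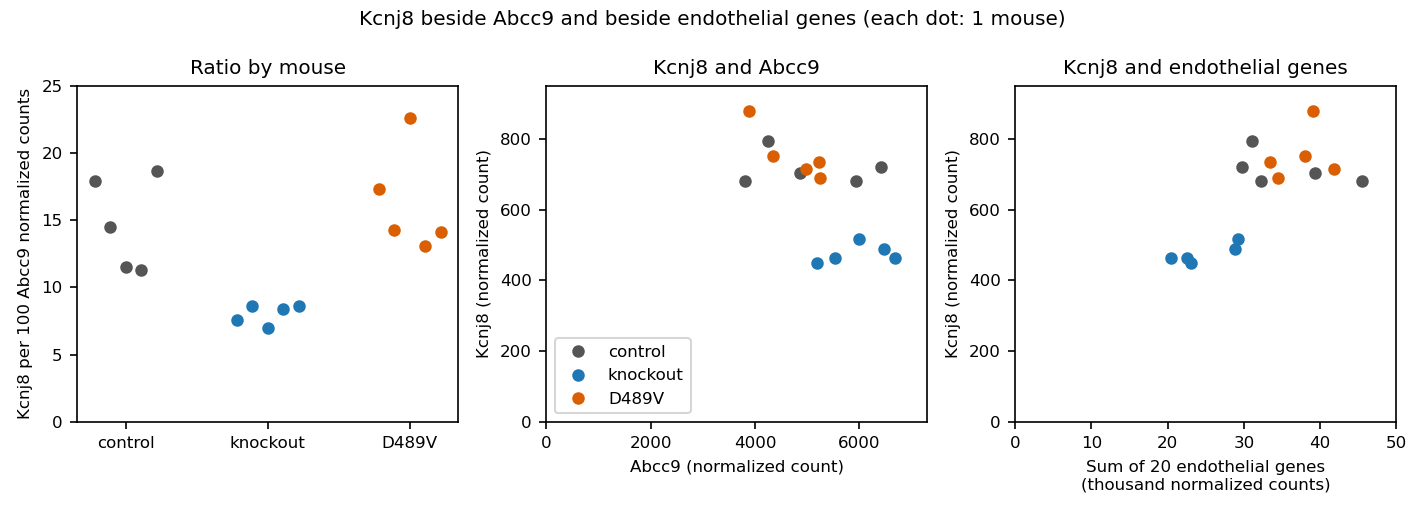
Kcnj8 per 100 Abcc9 normalized counts by group (left), Kcnj8 against Abcc9 (middle) and Kcnj8 against the summed normalized counts of 20 endothelial genes (right), each dot 1 mouse, axes from 0. Knockout mice lie at ratios of 6.95 to 8.64, below the other mice, and have both the lowest Kcnj8 and the lowest endothelial sums.

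The promoters of these neighbours and of Cspg4, the other gene with a call, are shown because their RNA moved in the direct comparison, Kcnj8 and Cspg4 downward and Abcc9 upward. Each runs 5′ to 3′ on the gene's own strand, from 250 bases before to 50 after the RefSeq start (GRCm38.p6). Capitals mark TGGGAA on either strand, the core bound by the Notch effector RBPJ.
Kcnj8, chr6:142571565-142571864, minus strand: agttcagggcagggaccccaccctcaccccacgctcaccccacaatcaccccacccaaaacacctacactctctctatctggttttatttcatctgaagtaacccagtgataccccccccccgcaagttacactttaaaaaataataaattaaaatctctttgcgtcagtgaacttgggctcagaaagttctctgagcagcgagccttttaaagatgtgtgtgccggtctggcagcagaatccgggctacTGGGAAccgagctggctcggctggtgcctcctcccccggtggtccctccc
Abcc9, chr6:142702225-142702524, minus strand: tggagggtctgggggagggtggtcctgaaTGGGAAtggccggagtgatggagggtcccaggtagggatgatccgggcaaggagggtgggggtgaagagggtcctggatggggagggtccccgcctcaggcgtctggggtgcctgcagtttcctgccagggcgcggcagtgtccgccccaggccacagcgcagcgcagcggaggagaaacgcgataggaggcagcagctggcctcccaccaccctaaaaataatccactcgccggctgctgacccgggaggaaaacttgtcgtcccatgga
Cspg4, chr9:56864854-56865153, plus strand: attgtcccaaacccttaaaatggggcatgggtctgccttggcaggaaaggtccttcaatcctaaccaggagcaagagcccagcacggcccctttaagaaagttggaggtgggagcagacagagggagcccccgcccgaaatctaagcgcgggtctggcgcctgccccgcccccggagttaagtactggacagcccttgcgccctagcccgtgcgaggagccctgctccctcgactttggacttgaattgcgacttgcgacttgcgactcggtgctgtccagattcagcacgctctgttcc
In Kcnj8 the TGGGAA begins at the first transcribed base. The motif was in 3 of the 7 members with a promoter in the RefSeq table (Kcnj8, Abcc9 and Vtn) and in 25.6% of 32851 promoters of that length. The hypoxia response core ACGTG, searched on both strands with no overlap with the first motif, was in 1 of the 7 (Notch3) and in 19.6% of all. The CArG box of serum response factor was in 0 of the 7 and in 1.63% of all. Kcnj8 and Abcc9, which moved oppositely, both hold TGGGAA, and Cspg4 holds none of the 3 motifs in this window.

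Cspg4 (ENSMUSG00000032911, chr9:56865033-56899870, plus strand) encodes the NG2 proteoglycan, a transmembrane surface protein of pericytes that is also carried by some glial and progenitor cells. It held 748, 752, 770, 688 and 598 normalized counts in controls, 547, 671, 514, 592 and 492 in knockout and 821, 773, 930, 897 and 899 in D489V. Every D489V mouse lay above every control and every knockout mouse, and knockout and controls overlapped only between 598 and 671. Cspg4 fell in knockout against D489V, with a log2 difference of -0.62 (SE 0.101, limma adjusted p 0.00391), with 5 of 5 knockout mice below all D489V mice. Part of that gap lay on each side of the controls. The log2 difference from control was -0.34 in knockout (95% interval -0.58 to -0.10, limma adjusted p 0.302) and 0.28 in D489V (95% interval 0.08 to 0.49, limma adjusted p 0.354), and neither passed. Cspg4 was the 1 gene of the 9 whose D489V values all lay above all controls. The calls of Kcnj8 and Cspg4 in the direct comparison held in all 17 alternatives.

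Rgs5 (ENSMUSG00000026678, chr1:169655501-169695813) held 12345, 11497, 11637, 11305 and 10225 normalized counts in controls. The knockout mice held 10398, 9730, 8777, 8654 and 9936, and the D489V mice 9879, 12052, 13769, 12040 and 10141. Knockout replicate 1 alone exceeded a control, while D489V mice spread from below to above the controls. The log2 difference in knockout was -0.26 against control (95% interval -0.46 to -0.07, limma adjusted p 0.305) and -0.28 against D489V (95% interval -0.51 to -0.05, limma adjusted p 0.0791). In D489V against control it was 0.01 (95% interval -0.22 to 0.25), with limma adjusted p of 0.979.

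Vtn (ENSMUSG00000017344, chr11:78499091-78502324) encodes vitronectin, a secreted glycoprotein that binds integrins. It held 1091, 1089, 959, 983 and 953 normalized counts in controls, 827, 967, 639, 680 and 600 in knockout and 1011, 927, 1259, 786 and 820 in D489V. Of the knockout mice, replicate 2 alone reached the range of the controls. The log2 difference in knockout was -0.47 against control (95% interval -0.75 to -0.19, limma adjusted p 0.28) and -0.37 against D489V (95% interval -0.71 to -0.03, limma adjusted p 0.102). Without knockout replicate 2 the latter was -0.47 and passed (limma adjusted p 0.0462). Among genes of the basement membrane and of vitronectin's partners, Itgav, which encodes the integrin chain that binds vitronectin, went the other way: it rose in knockout against D489V, with a log2 difference of 0.82 (limma adjusted p 0.00445), and knockout mice held 836 to 1164 normalized counts against 477 to 798 in controls. Of the 17 genes of that list, Itgav and Itgb1 rose and Lama5 fell in the direct comparison, by limma, where 10.5% of all genes rose and 10.3% fell, and Lama5 did not pass without knockout replicate 3.

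Mcam (ENSMUSG00000032135, chr9:44134469-44142727) encodes an adhesion molecule of pericytes, smooth muscle and endothelium. It held 1862, 1794, 1755, 2208 and 1671 normalized counts in controls, 1557, 1715, 1094, 1733 and 1757 in knockout and 2012, 1633, 2078, 1675 and 2053 in D489V. Its groups overlapped, and knockout replicate 3, at 1094, stood apart from its group. The log2 difference in knockout against control was -0.26 (95% interval -0.55 to 0.04, limma adjusted p 0.371), and without that mouse it was -0.13. In the direct comparison it was -0.28, and -0.15 without that mouse.

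Notch3 (ENSMUSG00000038146, chr17:32120820-32166852, minus strand) encodes the main Notch receptor of mural cells, the joint name for pericytes and smooth muscle cells. It held 1483, 1232, 1734, 1467 and 1693 normalized counts in controls, 1596, 1663, 1364, 1475 and 1324 in knockout and 1240, 1641, 1491, 1876 and 1707 in D489V. The 3 groups covered nearly the same range. Its log2 difference from control was -0.03 in knockout (95% interval -0.27 to 0.21) and 0.06 in D489V (95% interval -0.22 to 0.34), and in the direct comparison it was -0.09 (95% interval -0.34 to 0.16). Without knockout replicate 3 the last was -0.06. Other Notch genes moved in the direct comparison: 7 of the 15 listed passed, all lower in knockout, where 10.3% of all genes passed as lower, with a median of -0.43 over the list against 0.00 over all genes tested. They included the target Nrarp at -1.04, the ligands Dll1 at -0.87, Dll4 at -0.83 and Jag1 at -0.72 (limma adjusted p 0.00309, 0.00983, 0.0154 and 0.00224). Dll4 and Nrarp are also expressed by endothelial cells. None of the 15 passed in limma in knockout against control, where 6 were lower at an unadjusted p under 0.05 (7.42% of all genes), or in D489V against control, where 2 were higher at an unadjusted p under 0.05 (5.37% of all genes). Heyl, a Notch target of mural cells, was at 290 to 429 in knockout and 517 to 577 in controls, a log2 difference of -0.54 that did not pass (limma adjusted p 0.227).

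Higd1b and Ndufa4l2 encode small mitochondrial proteins that are strongly enriched in pericytes, the second being induced by hypoxia. Higd1b (ENSMUSG00000020928, chr11:102835849-102838040) rests on the fewest counts, with 160, 108, 99, 116 and 115 in controls, 91, 108, 109, 109 and 142 in knockout and 167, 162, 216, 131 and 87 in D489V. The D489V group held both the highest and the lowest mouse. Ndufa4l2 (ENSMUSG00000040280, chr10:127514967-127517154) held 386, 350, 341, 362 and 326 in controls, 356, 417, 249, 310 and 268 in knockout and 309, 368, 472, 394 and 321 in D489V. Controls varied least, with a coefficient of variation of 6.42% against 21.3% in knockout and 17.5% in D489V. Log2 differences in knockout against D489V were -0.40 for Higd1b (95% interval -0.87 to 0.08) and -0.23 for Ndufa4l2 (95% interval -0.58 to 0.12), with limma adjusted p of 0.203 and 0.316. The value of Ndufa4l2 was -0.14 without knockout replicate 3 and also -0.14 without D489V replicate 3, and against control it was -0.16 with all mice and -0.08 without knockout replicate 3. Cox4i2, the lung isoform gene of a cytochrome oxidase subunit and also a pericyte marker, had a log2 difference of -0.69 in knockout against control that did not pass (limma adjusted p 0.353).

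A wider list of 28 other mural cell genes was read from the same fits. In knockout against control 24 lay below 0 and 4 above, with a median of -0.31 against 0.01 over all genes tested, and 0 passed in limma, with 8 lower and 0 higher at an unadjusted p under 0.05 (7.42% and 7.65% of all genes). Without knockout replicate 3, 19 of the 27 then tested lay below 0, with a median of -0.24, and 8 were again lower at that level. In 5 of the 28 (Pdgfrb, Heyl, Gucy1a1, S1pr3 and Agtr1a, named after their values were seen) every knockout mouse lay below every control, as in 1.25% of all genes. The log2 difference of Pdgfrb in knockout against control was -0.45 (95% interval -0.73 to -0.16). It did not pass (limma adjusted p 0.294, and 0.468 without knockout replicate 3). In D489V against control 18 lay above 0 and 10 below. Pdgfrb alone passed there, with a log2 difference of -0.96 (limma adjusted p 0.00168), where 0.0326% of all genes passed as lower. In knockout against D489V 7 passed as lower (10.3% of all genes) and 1, Pdgfrb, as higher (10.5% of all genes), by 0.51 (limma adjusted p 0.0258). Without knockout replicate 3 these counts were 6 and 1. Among those that passed, the largest falls were those of Agtr1a, an angiotensin receptor gene, at -0.94, Tbx2, a transcription factor gene, at -0.84, Ebf1, another, at -0.57, and Gucy1a1, a subunit of the nitric oxide receptor, at -0.55 (limma adjusted p 0.00349, 0.0212, 0.00921 and 0.00516). Agtr1a was at 72 to 112 in knockout, 124 to 153 in controls and 151 to 197 in D489V, so its 5 knockout mice were below all others. Among 13 PDGF and mural recruitment genes, Pdgfb, the gene of the ligand, fell in knockout against D489V by 0.46 (limma adjusted p 0.0152). It held 793 to 1088 in knockout, 1537 to 1642 in controls and 1194 to 1576 in D489V, and against control its log2 difference of -0.71 did not pass (limma adjusted p 0.0787). Angpt2 and Tek, the genes of a ligand and of its receptor, fell in the direct comparison by 0.83 and 0.54 (limma adjusted p 0.00459 and 0.00706). Angpt1, also among the 13, went the other way, with means of 567.6 in knockout, 412.4 in controls and 379.0 in D489V. Of the 13, 11 lay below 0 and 2 above in the direct comparison. There 4 passed as lower (10.3% of all genes) and 1 as higher (10.5%), and 3 and 1 without knockout replicate 3.

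Of 18 RGS genes, the family of Rgs5, 13 were tested in knockout against D489V and 5 passed, all lower, where 10.3% of all genes passed as lower. With a mean of 50 or more these were Rgs2 at -1.08, Rgs16 at -0.90 and Rgs3 at -0.76 (limma adjusted p 0.00784, 0.0255 and 0.00307), and Rgs16 did not pass without knockout replicate 3. Rgs3 was at 308 to 471 in knockout, 409 to 721 in controls and 633 to 733 in D489V. Rgs5 itself was thus not among the members of its family that passed.

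Endothelial genes lay lower in knockout, and whether the pericyte genes varied with them was not tested. Of 20 endothelial genes, 20 lay below 0 in knockout against control (median -0.46, 0 passing in limma, 13 lower at an unadjusted p under 0.05 where 7.42% of all genes were). In knockout against D489V 17 of 20 passed as lower, where 10.3% of all genes did (median -0.56), and 14 without knockout replicate 3. Among those that passed, the greatest falls were those of Cldn5, a tight junction gene, at -1.66, Egfl7 at -0.92, Ushbp1 at -0.92 and Kdr, the main receptor for vascular endothelial growth factor, at -0.87 (limma adjusted p 0.00243, 0.00693, 0.00864 and 0.00778). The summed endothelial level was 29701 to 45538 normalized counts in controls, 20414 to 29273 in knockout and 33420 to 41773 in D489V, so knockout mice were below both other groups. Per 1000 of these endothelial counts the median of Kcnj8 was 21.2 counts in controls (highest 25.5) and 19.5 in knockout (17.0 to 22.7), D489V mice lay at 17.1 to 22.5, and the groups overlapped. By the same measure Cspg4 ranged over 16.4 to 23.9 in controls, 18.9 to 26.3 in knockout and 18.5 to 26.9 in D489V. Notch3 per 1000 endothelial counts was higher in knockout, at 55.2 to 66.8, than in controls, at 31.3 to 54.4, and in D489V, at 32.6 to 54.3. Of the 9 genes, Kcnj8 alone had a lower median in knockout than in controls on this measure. Control and knockout medians were 329 and 385 for Rgs5, 136 and 226 for Abcc9 and 53.7 and 58.6 for Mcam. They were 3.51 and 4.85 for Higd1b and 10.5 and 12.3 for Ndufa4l2. Knockout and control ranges overlapped for all of the 9 but Notch3. Abcc9 in knockout, at 205 to 327, lay above D489V, at 99.6 to 156. Pdgfrb was at 40.6 to 58.2 in controls, 41.6 to 59.6 in knockout and 19.8 to 29.0 in D489V. These ratios were chosen after the values were seen, and the part of the endothelial share in the results was not tested.

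Other cell types moved to differing degrees. Among 14 smooth muscle contractile genes, of which 13 were tested, 3 passed as lower in the direct comparison, where 10.3% of all genes did. Tagln, Myh11 and Lmod1 fell there by 0.72, 0.61 and 0.54 (limma adjusted p 0.0141, 0.0178 and 0.0475), and Lmod1 did not pass without knockout replicate 3. The summed level of the 14 overlapped between groups, at 32802 to 42751 in controls, 35733 to 40596 in knockout and 32249 to 40331 in D489V, but Synpo2 made up much of it, with means of 17700, 22680 and 16740. Means of Acta2, Myh11, Tagln, Smtn, Mylk and Myl9 were lower in knockout than in controls, among them Acta2 at 2506 against 3115. Of the 13 tested, 10 lay below 0 against control and 0 passed in limma. At an unadjusted p under 0.05, 3 were lower (0 without knockout replicate 3), where 7.42% of all genes were. Of 8 adipocyte genes 7 passed as lower in knockout than in D489V (10.3% of all genes did), with sums of 6238 to 10066 against 16393 to 60151 and controls between 1841 and 33721. In D489V against control all 8 lay above 0, with a median of 1.93. At an unadjusted limma p under 0.05, 6 were higher there, where 5.37% of all genes were. In knockout against control 6 lay below 0 and 2 above, with a median of -0.19, and 0 differed at that level. None of the 8 passed in limma against control in either group. Of 10 Schwann and nerve genes 7 passed as lower in the direct comparison (10.3% of all genes did), and 3 without knockout replicate 3. In knockout against control all 10 lay below 0, with a median of -0.58 (-0.51 without knockout replicate 3), and 0 passed in limma. At an unadjusted limma p under 0.05, 7 were lower there with or without that mouse, where 7.42% of all genes were with all mice. In D489V against control all 10 lay above 0, with a median of 0.49. The Schwann and nerve sums were 6555 to 10321 in knockout, 9213 to 14991 in controls and 12906 to 51943 in D489V. The highest was D489V replicate 3, which was also highest for Rgs5, Kcnj8, Cspg4, Higd1b, Ndufa4l2 and Vtn. Of 12 fibroblast, 8 macrophage, 10 lymphocyte, 8 slow fibre and 10 fast fibre genes, 0 passed in limma in any comparison with all mice. In the direct comparison 20.8% of all genes passed. Without knockout replicate 3 the fibroblast genes Col1a2 and Col3a1 and the macrophage gene C1qa passed as higher in knockout than in D489V. Single mice nevertheless stood far apart within groups. The slow fibre sum was 8985 and 24325 in knockout mice 1 and 2 against 228290, 169995 and 146415 in knockout mice 3 to 5, 20852 to 217028 in controls and 47871 to 233392 in D489V. The lymphocyte sum ranged from 1499 to 8839 in knockout, 1158 to 9701 in controls and 1378 to 2336 in D489V. Cd79a, a B cell gene named after its values were seen, was at 4 and 11 in knockout mice 1 and 2, 374, 1072 and 297 in knockout mice 3 to 5, and 1077 in control 5 against at most 50 in the other mice. Knockout mice 3 to 5 also held the lower Vtn values of their group, 639, 680 and 600 against 827 and 967. At an unadjusted limma p under 0.05, 3 fibroblast genes were lower and 2 higher in D489V against control, where 4.06% and 5.37% of all genes were. In the direct comparison 2 fibroblast genes were lower (18.3% of all genes) and 1 fast fibre gene was higher (19.4%). In knockout against control 0 genes of the fibroblast, macrophage, lymphocyte and fibre lists differed at that level. The fibroblast sum was lowest in knockout replicate 3, at 69455 against 168230 to 258847 in the other knockout mice, and this mouse also had the lowest Mcam and Ndufa4l2 of all 15. The part of these cell types in the results was not tested.

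Within groups, correlations between the 9 genes ranged from positive to negative. After each group mean was subtracted, 36 pairs were correlated over the 15 mice, and 26 had a Pearson r above 0, with a median of 0.21. None passed a permutation test with 100000 shuffles within groups after Benjamini-Hochberg adjustment, which with 15 mice does not show that the genes vary apart. Ndufa4l2 and Vtn had the highest r, at 0.76 (Spearman 0.68, permutation p 0.0137 and 0.03, adjusted 0.124 and 0.25), which dropped to 0.46 without the 2 mice farthest from the median of Ndufa4l2. Kcnj8 and Vtn had an r of 0.71 (Spearman 0.61, permutation p 0.00833 and 0.0347, adjusted 0.103 and 0.25), and 0.80 without the 2 farthest mice. Rgs5 and Ndufa4l2 also had 0.71 (Spearman 0.70, permutation p 0.00857 and 0.0125, adjusted 0.103 and 0.25), and 0.56 without the 2 farthest. Abcc9 and Higd1b had the lowest r, at -0.66 (Spearman -0.62, permutation p 0.00312 and 0.0178, adjusted 0.103 and 0.25), and -0.70 without the 2 farthest. With group means left in, 13 pairs passed, 11 positive and 2 negative, and that count includes the differences between groups.

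**Figure D4:**
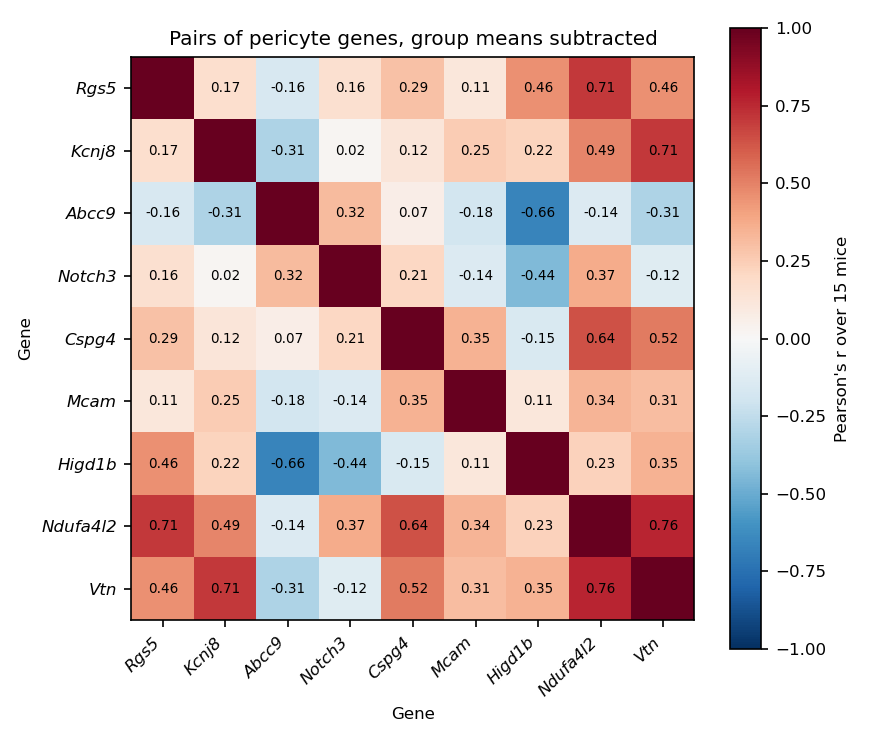
Pearson's r between pairs of the 9 pericyte genes (rows and columns) over 15 mice, on log2(normalized count + 1) with group means subtracted; red is positive and blue negative. Ndufa4l2 and Vtn share the highest value, 0.76, and Abcc9 is mostly negative, down to -0.66 with Higd1b.

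The genes most like the 9 were sought among 12150 others with a mean of 50 or more, by Pearson r over the same group-centred values, as a description. Set against the mean of the other 8, Ndufa4l2 had the highest r (0.93), then Vtn (0.69), Rgs5 (0.55), Cspg4 (0.51), Kcnj8 (0.40), Mcam (0.27), Notch3 (0.08) and Higd1b (0.03), and Abcc9 had -0.29. Outside the list the closest genes to the mean of all 9 were Insc (r 0.918), Mapk8ip1 (0.899), Bace2 (0.897), Dpysl3 (0.893) and Emp1 (0.884). For single genes the closest included Nbl1 for Rgs5 (0.872), Crocc for Kcnj8 (0.852), Glt8d2 for Notch3 (0.872), Fat1 for Cspg4 (0.873), Snrpd1 for Higd1b (0.887), Crtap for Ndufa4l2 (0.916) and Micall2 for Vtn (0.947). Abcc9 was closest to Cap2 (0.957), a gene expressed in striated muscle. All these values share the same 15 libraries. The closest genes were picked as the highest among 12150, and how high such picks would stand by chance was not tested. Their r values therefore do not show that they belong to pericytes.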

How the data were processed

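Poly(A) RNA of skeletal muscle from 15 mice was sequenced with directional libraries, per the labels' protocols. The values the authors deposited are a score: whole numbers that the tables' names call normalized counts per gene. Trim Galore 0.6.0, cutadapt, FastQC, STAR 2.7.0e, DESeq2 1.26.0 and the build GRCm38 are named in the submitters' processing notes, without their settings. The counting tool is not given in the sources used here.

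The 2 deposited tables hold the same control values in all 55536 genes. Median ratios to the gene-wise geometric mean were 1.0069 to 1.0097 over the samples, so knockout and D489V were compared directly. In 8 samples every whole number from 1 to 200 occurred, so whole reads were not recovered and depth in reads is unknown. All identifiers matched GENCODE M21, which gave symbols, positions and exon lengths.

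Pairs of groups were compared by limma 3.58.1 under R 4.3.3 (trend, two-sided, pseudocount 1), for genes at 10 or more in at least 5 of 10 samples. Fold changes are on the log2(value + 1) scale, which understates changes of low genes. Intervals cover 95%. The fits and correlations were checked on simulated data. For the fits, every simulated gene had the same spread and no mouse stood apart, so performance on these data is not shown. Python 3.11.15, scipy 1.17.1 and matplotlib 3.10.9 were used for the rest. The 9 genes and all lists were chosen with earlier results of these data known. Besides the 9 genes and Pdgfrb, the text names up to 4 genes per list that passed with a mean of 50 or more, by size of change, and the genes of the closest pattern. Exceptions, named after their values were seen, are Kcnj11, Abcc8, Cox4i2, Heyl, S1pr3, Angpt1, Xist, Cd79a, Synpo2, Acta2, Smtn, Mylk, Myl9, Col1a2, Col3a1 and C1qa, and Pdgfb, Itgav and Agtr1a against control. The closest gene is not reported here for every member. Fits of the lists and of Pdgfrb without knockout replicate 3 were added after seeing the data.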

Additional observations from a re-analysis of the deposited data

Results flagged for a closer look

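Mcam in knockout replicate 3 was the 1 value of 30 groups of 5 mice (the 9 genes and Pdgfrb, in 3 groups) that stood far from its group. It was 1094 normalized counts against 1557 to 1757 in the other knockout mice, a gap of 0.745 of the group's log2 range where 0.71 is the limit. Chance gives about 1 in 20 groups. The same mouse held 3165 normalized counts of Xist.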

How the results depend on the processing

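Kcnj8 and Cspg4 passed in knockout against D489V under all 17 alternatives, with log2 differences of -0.69 to -0.60 and -0.69 to -0.57. Abcc9 passed in 7 of 17. Higd1b passed without D489V replicate 5 (-0.58) and Vtn without knockout replicate 2 (-0.47). Leaving out one replicate gave 2 to 4 of the 9 genes in that comparison, and 0 in both comparisons with control. With all 15 samples in one fit 1 of the 9 (Kcnj8) passed in knockout against control.

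Over all genes, knockout against control gave 1 gene as reported, 16 with all 15 samples in one fit, and 1 to 7 without one replicate (7 without knockout replicate 2). D489V against control gave 9 as reported, 19 with pseudocount 5, 19 after upper-quartile rescaling, 4 among genes averaging at least 50, 1 in the fit of all 15 samples, 21 with robust eBayes, and 2 to 26 without one replicate. Knockout against D489V gave 3181 as reported and 1398 (without D489V replicate 1) to 3686 without one replicate. What moved these counts was not tested.

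Of 459 recomputed values of the 9 genes, 429 stayed on their side of 0 and of the threshold, 10 lost the threshold (all Abcc9 in the direct comparison), 3 gained it and 17 changed sign, none of these 17 past the threshold. Those 17 lay close to 0. In knockout against control, Notch3 was 0.02 with upper-quartile rescaling and -0.10 to 0.02 without one replicate, and Higd1b was -0.18 to 0.02. In D489V against control the ranges without one replicate were -0.05 to 0.07 for Rgs5, -0.17 to 0.02 for Abcc9, -0.01 to 0.15 for Notch3, -0.01 to 0.09 for Mcam and -0.03 to 0.13 for Ndufa4l2. The number of correlated pairs was 13 without centring by group, and 0 to 1 without one replicate.

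A replicate block left 2208 genes in the direct comparison and 2 of the 9, with Abcc9 losing the threshold (0.34, limma adjusted p 0.11). Against control the block gave 1 gene in knockout and 7 in D489V, and 0 of the 9 in either. Deviations of mice with the same number had correlations between -0.41 and 0.38. Mice with different numbers were not compared, so these values cannot decide whether pairing by number matters. Depth in reads is unknown, and Higd1b, at 87 to 216 normalized counts, has the widest intervals.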
